A study of Rattus norvegicus with 9 samples.

Results

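The MHC class I antigen presentation genes B2m, Tap1, Tap2, Tapbp, Psmb8, Psmb9, Psmb10, Cd74 and Irf1 were followed in rat ventral midbrain cells, grown in culture or taken as embryonic tissue. Members were found by gene symbol among probe sets annotated with 1 symbol, and all 9 genes had at least 1. They took up 11 of the 15866 probe sets tested, and 10411 genes in all had such a probe set. B2m and Tap1 had 2 probe sets each. For these the brighter one over all 9 arrays was used and the dimmer one served as a check.

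The material came from 4 pregnant rats, whose day 11 embryos were combined into 3 groups kept separate from then on. The cells of the ventral midbrain were grown as primary cultures for 9 days in vitro (MesPC, 6 arrays), or the dissected ventral midbrain was pooled as tissue (MesE11, 3 arrays). No treatment or genotype is named in the labels. They state that cultures were made in duplicate and that 3 independent culture samples were hybridized, whereas 6 culture arrays are given, so these arrays may not be 6 independent cultures. Pooled tissue also holds blood, vessel and other cells, and every p-value below rests on array-to-array spread alone, which may be technical; their small number limits the precision. The comparison asks how far cultured midbrain cells resemble the tissue they were taken from.

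Nearly every nucleated cell can show fragments of its own proteins on MHC class I molecules. A class I molecule joins a heavy chain, encoded in the rat by RT1 genes, to beta-2-microglobulin, the light chain encoded by B2m. Peptides are cut by the proteasome, carried into the endoplasmic reticulum by the transporter TAP, trimmed there and loaded on the heavy chain with the help of tapasin and general chaperones. Interferon, in part through Irf1, raises the transcription of most of these genes in many cell types, and healthy brain tissue, neurons above all, is known for low class I levels.

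Values are log2 intensities, and differences are MesPC minus MesE11 on that scale with the standard error of the limma fit. The array medians lay between 8.61 and 8.67. Culture arrays 1 to 3 resembled each other more than they did arrays 4 to 6, a split the labels do not name. Pearson's r over all probe sets, with genes not being replicates, lay at 0.997 to 0.998 inside each set and at 0.982 to 0.987 from set to set. Results are therefore also given for each set alone and with a random block for the array sets. The 15 bacterial control probe sets, which should find no rat RNA, read between 4.90 and 6.68, and values in that range cannot be told from background. In bulk RNA, fewer cells of a type and less RNA per cell cannot be told apart.

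B2m was the member that was higher in culture, and Psmb8 the member that was lower. By limma with Benjamini-Hochberg adjustment over all probe sets, 1 of the 9 genes passed upward, against 21.9% of all genes, and 1 downward, against 22.7% of all genes. The other 7 did not pass. The culture and tissue values of 1 gene lay apart with culture above, against 21.1% of all genes, and of 1 with culture below, against 23.3%. The median difference over the 9 genes was −0.09, against −0.06 over all genes, and the quartiles over all genes were −0.22 and 0.19. Dim probe sets as a whole read lower in culture: the lower quartile was 7.15 to 7.21 on the tissue arrays, 7.09 to 7.11 on culture arrays 1 to 3 and 6.98 to 7.07 on arrays 4 to 6. Under quantile normalization 3 genes passed upward and 1 downward, against 20.9% and 23% of all genes. Tap1, Tap2, Cd74 and Psmb8 then differed by −0.01, −0.06, −0.01 and −0.40, against −0.13, −0.18, −0.13 and −0.50 as deposited. B2m and Psmb10 moved the other way, to 1.29 and −0.06. With centring on the array medians 1 passed upward and 3 downward, against 19.6% and 28.4% of all genes. The random block gave 1 in each direction, against 13.2% of all genes upward and 9.11% downward. Culture arrays 1 to 3 alone gave 2 upward and 1 downward, against 25.7% and 27% of all genes, and arrays 4 to 6 alone gave 1 upward and 2 downward, against 22.9% and 27.2%. The median over the 9 genes under the same fits was −0.01 and −0.17.

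**Figure D1:**
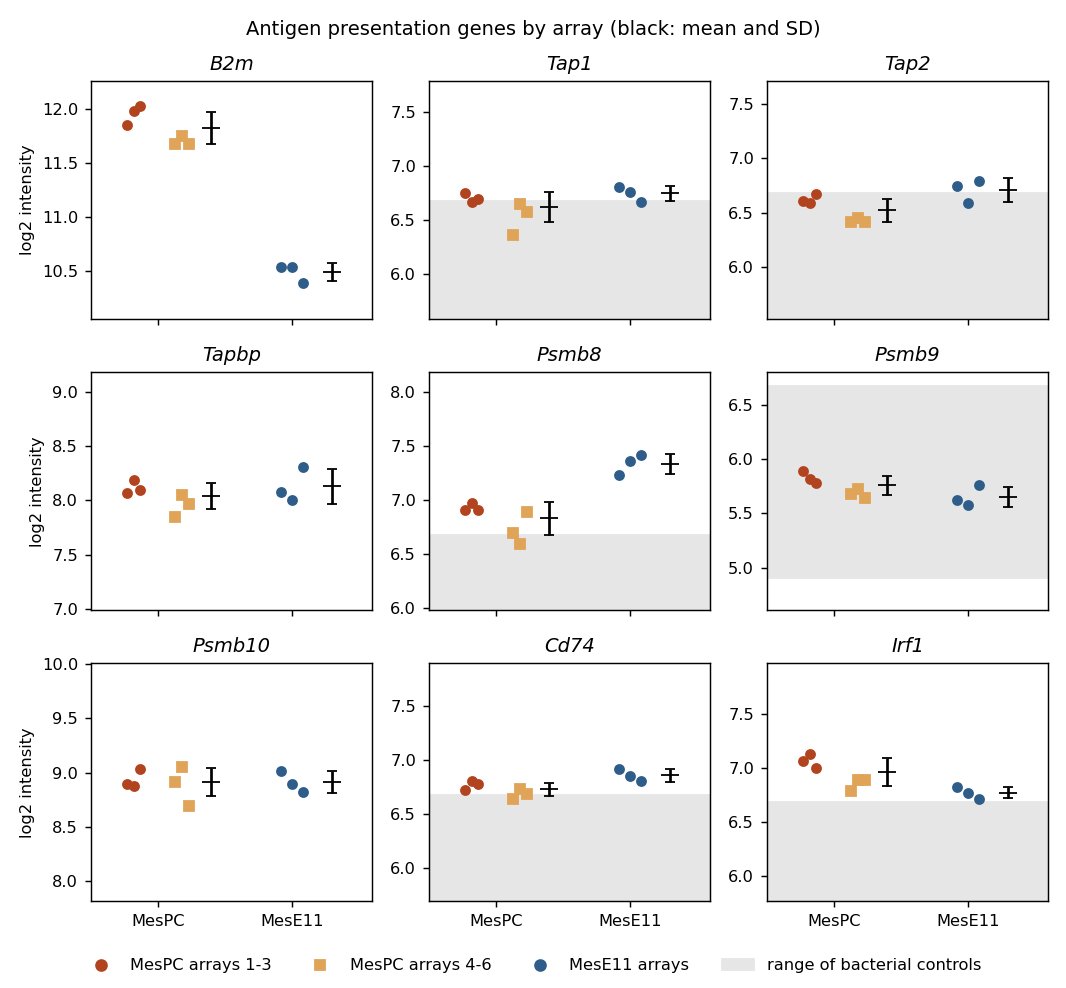
Log2 intensity of the 9 genes on each array, with MesPC to the left of MesE11, 1 panel per gene and the same height of axis in all panels. Circles and squares at left are culture arrays 1 to 3 and 4 to 6, blue circles are tissue arrays, black bars are means with SD (n = 6 and n = 3), and grey shows the range of the bacterial controls. The groups lie apart for B2m, with culture above, and for Psmb8, with culture below.

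The promoters are shown because most of these genes carry the letters of a motif through which interferon acts. The sequences come from RefSeq (build GRCr8), where all 9 genes had a window of 250 bases before to 50 after the gene start. Motif matches are in capitals. Each motif was searched on both strands. The core of the interferon-stimulated response element was taken as GAAA, any 2 bases, GAAA; the core of STAT sites as TTC, any 3 bases, GAA; and the NF-kappaB site as GGGA, any base, TTTCC.
B2m, chr3:129549160-129549222, plus strand: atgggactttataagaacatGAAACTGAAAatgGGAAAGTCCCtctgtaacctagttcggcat
Tap1, chr20:4668569-4668684, minus strand: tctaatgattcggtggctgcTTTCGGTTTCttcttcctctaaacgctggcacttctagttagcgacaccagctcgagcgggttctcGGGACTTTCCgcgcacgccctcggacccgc
Tap2, chr20:4652308-4652357, minus strand: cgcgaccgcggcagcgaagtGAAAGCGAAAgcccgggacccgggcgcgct
Tapbp, chr20:4967878-4967958, minus strand: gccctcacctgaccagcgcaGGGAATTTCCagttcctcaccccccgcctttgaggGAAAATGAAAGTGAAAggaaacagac
Psmb8, chr20:4657026-4657055, minus strand: cctcctcttggtgctgtggcTTTCGCTTTC
Psmb10, chr19:50743293-50743385, minus strand: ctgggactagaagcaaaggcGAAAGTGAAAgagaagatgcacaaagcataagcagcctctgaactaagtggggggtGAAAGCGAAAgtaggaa
Irf1, chr10:38417773-38417821, plus strand: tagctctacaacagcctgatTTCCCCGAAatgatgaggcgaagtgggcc

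The interferon-stimulated response core was found in the windows of 6 of the 9 genes, against 3.92% of all 33469 windows in the table. These were B2m, Tap1, Tap2, Tapbp, Psmb8 and Psmb10. In Tap1 and Psmb8 it stands on the opposite strand to the gene, in Psmb8 it spans the gene start, and in Tapbp a pair of matches overlap. The NF-kappaB letters were found in B2m, Tap1 and Tapbp, against 0.362% of all windows, and the STAT core in Irf1 and Psmb8, against 8.87%. In Psmb9 and Cd74 none of these letters were found in the window. Psmb10 holds 2 response cores close to its start. A match is only a run of letters, and whether interferon acts through it in these cells was not tested. Tap2, Psmb8, Tap1 and Psmb9 follow each other on chromosome 20 with 0 other protein-coding genes listed between neighbours. The windows of Tap1 and Psmb9, which are read in opposite directions, share 44 bases.

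**Figure D2:**
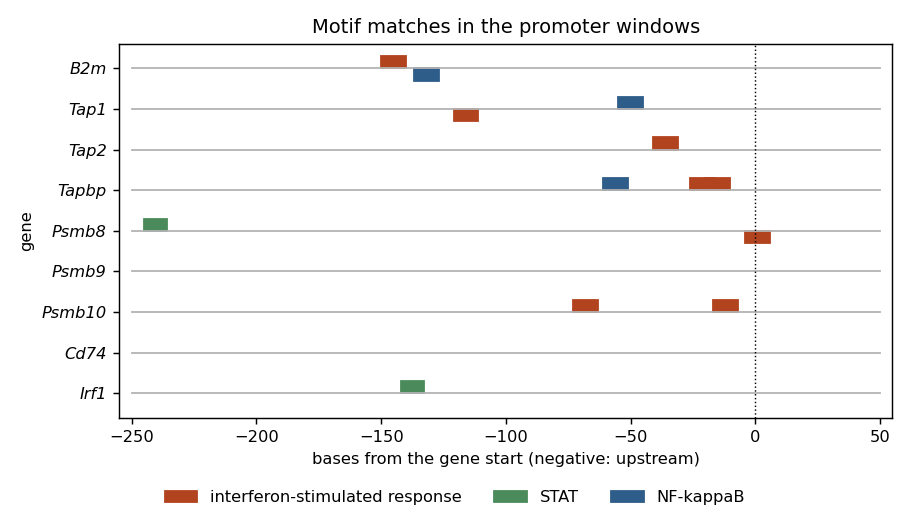
Position of each motif match in the promoter windows of the 9 genes, in bases from the gene start (dotted line). Blocks above a line match on the strand of the gene and blocks below it on the opposite strand. Matches to the interferon-stimulated response core stand in 6 of the 9 windows.

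B2m, the light chain of every classical class I molecule, read 11.85, 11.98, 12.02, 11.67, 11.75 and 11.67 on the culture arrays, against 10.54, 10.54 and 10.39 on the tissue arrays. Every culture value lay more than 1 log2 unit above every tissue value. B2m averaged 11.82 ± 0.15 in culture (SD, n = 6) and 10.49 ± 0.08 in tissue (SD, n = 3), a rise of 1.33 ± 0.09 or 2.52-fold (limma adjusted p = 3.3e-06). The dimmer B2m probe set read 8.52 to 8.85 in culture and 7.41 to 7.67 in tissue, a rise of 1.20 ± 0.09 (limma adjusted p = 6.8e-06). The rise held within either culture set, at 1.46 ± 0.07 with arrays 1 to 3 alone and 1.21 ± 0.07 with arrays 4 to 6 alone, and with the random block (limma adjusted p = 2.6e-05). At 2-fold or more, 3.63% of all genes rose.

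Psmb8 encodes a catalytic subunit of the immunoproteasome, the interferon-inducible form of the proteasome. It read 6.91, 6.97, 6.91, 6.69, 6.59 and 6.89 on the culture arrays, against 7.23, 7.36 and 7.41 on the tissue arrays. All 6 culture values lay below the tissue values. Psmb8 averaged 6.83 ± 0.15 in culture (SD, n = 6) and 7.33 ± 0.09 in tissue (SD, n = 3), and fell by 0.50 with a standard error of 0.09, or 1.42-fold (limma adjusted p = 0.00182). Set by set, the fall amounted to −0.40 ± 0.07 for arrays 1 to 3 and −0.61 ± 0.09 for arrays 4 to 6. It passed with the random block (limma adjusted p = 0.0233). Culture array 5 read below the highest bacterial control, while the tissue arrays lay above it.

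The other catalytic subunits of the immunoproteasome did not pass. Psmb10 read 8.89, 8.88, 9.03, 8.91, 9.05 and 8.69 in culture, against 9.01, 8.89 and 8.82 in tissue, and the groups overlapped. Its difference was 0.00 ± 0.08, with a 95% interval from −0.18 to 0.19 (limma adjusted p = 0.970). That interval leaves out a change of the size of B2m in either direction. Psmb9 read 5.64 to 5.89 in culture and 5.58 to 5.76 in tissue (difference 0.10 ± 0.07, limma adjusted p = 0.233). None of its values exceeded the highest bacterial control, so its level could not be told from background. Its difference passed under quantile normalization (0.19, limma adjusted p = 0.0337).

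The transporter genes read near background in both groups. Tap1, which encodes a subunit of the TAP transporter, read 6.75, 6.67, 6.70, 6.36, 6.65 and 6.58 in culture, against 6.81, 6.76 and 6.67 in tissue. Tap2, its partner, read 6.61, 6.59, 6.67, 6.41, 6.45 and 6.41 in culture, against 6.75, 6.59 and 6.79 in tissue. The groups overlapped for both, and 3 culture arrays lay below all tissue arrays in either case. The differences of −0.13 ± 0.08 for Tap1 and −0.18 ± 0.08 for Tap2 did not pass (limma adjusted p = 0.235 and 0.0797). The dimmer Tap1 probe set, at 6.24 to 6.58 in culture and 6.68 to 6.81 in tissue, did pass at −0.23 ± 0.08 (limma adjusted p = 0.0485) but not with the random block (0.249). Tap2 passed with culture arrays 4 to 6 alone (−0.28 ± 0.07, limma adjusted p = 0.00873) and with median centring (−0.22, 0.0499). The mean of either gene in culture lay below the highest control value.

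Tapbp encodes tapasin, which holds the empty class I molecule at the transporter. It read 8.07, 8.19, 8.10, 7.85, 8.05 and 7.97 in culture, against 8.08, 8.0 and 8.31 in tissue. The groups overlapped and lay above the bacterial controls on every array. The difference of −0.09 ± 0.09 did not pass, with a 95% interval from −0.29 to 0.10 (limma adjusted p = 0.407).

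Cd74 and Irf1 stand at the edge of the class I pathway. Cd74 encodes the invariant chain, which guides MHC class II molecules and marks cells that carry them. It read 6.72, 6.81, 6.78, 6.64, 6.73 and 6.69 in culture, against 6.92, 6.85 and 6.81 in tissue, with 5 of 6 culture arrays below the tissue arrays (difference −0.13 ± 0.05, limma adjusted p = 0.0741). It passed with median centring (−0.17, limma adjusted p = 0.0415). Irf1 is a transcription factor that interferon induces and that acts on the promoters of class I genes. It read 7.06, 7.13, 7.0, 6.78, 6.89 and 6.89 in culture, against 6.82, 6.77 and 6.71 in tissue. For Irf1, 5 of 6 culture arrays lay above every tissue array, array 4 being the exception. Its tissue values lay close to the highest bacterial control of 6.68. The difference of 0.19 ± 0.08 did not pass (limma adjusted p = 0.0730). It did with culture arrays 1 to 3 alone (0.30 ± 0.06, limma adjusted p = 0.0031), under quantile normalization (0.31, 0.00398) and without MesPC replicate 4 (0.23, 0.0289).

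**Figure D3:**
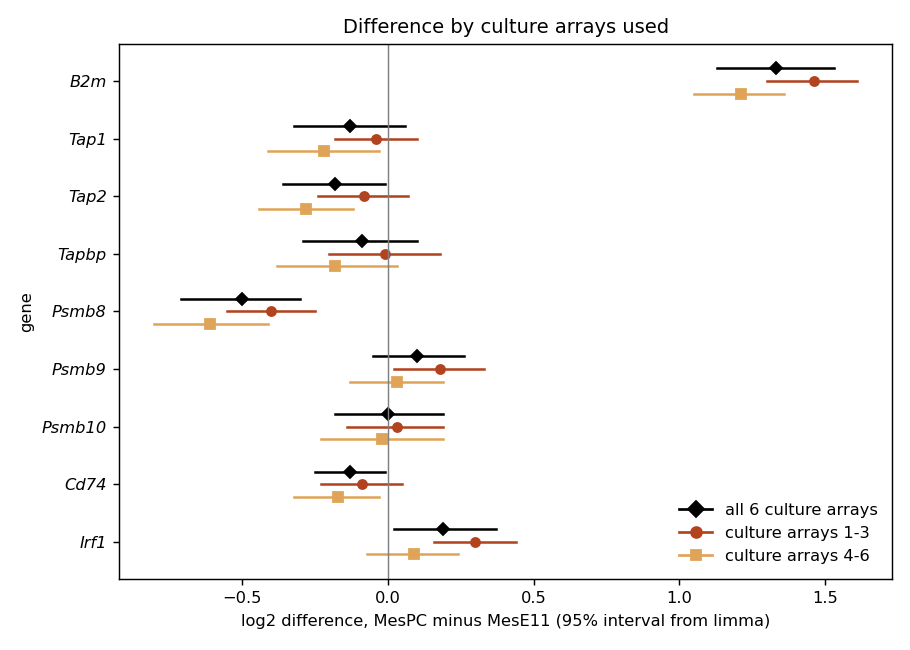
Log2 difference of each gene, MesPC minus MesE11, with its 95% interval from limma, for all 6 culture arrays (black), arrays 1 to 3 alone (red) and arrays 4 to 6 alone (yellow) against the same 3 tissue arrays. B2m lies near 1.33 and Psmb8 near −0.50 with every choice of culture arrays on the same side of 0. The other genes lie closer to 0. Some of their intervals leave out 0, among them that of Irf1 with arrays 1 to 3 alone (0.16 to 0.44). That of Tap2 with arrays 4 to 6 alone (−0.44 to −0.12) does so too.

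Between the culture sets the values of arrays 1 to 3 were mostly the higher ones. For 7 of the 9 genes every value of arrays 1 to 3 lay above every value of arrays 4 to 6, against 26% of all genes, and for 0 of 9 below, against 22.4%. No p is given, because the split was recognised from the arrays. B2m averaged 11.95 ± 0.08 on arrays 1 to 3 and 11.70 ± 0.04 on arrays 4 to 6 (SD, n = 3 each), a difference of 0.25. For Irf1 these means were 7.06 ± 0.07 and 6.85 ± 0.07, and for Psmb8 6.93 ± 0.03 and 6.72 ± 0.15. The differences over the 9 genes ran from 0.05 for Psmb10 to 0.25 for B2m. Psmb10 and Cd74 were the genes whose sets overlapped.

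These differences between sets depended on how the arrays were scaled. The lower quartile of all probe sets was 7.09 to 7.11 on arrays 1 to 3 and 6.98 to 7.07 on arrays 4 to 6. Dim probe sets as a whole therefore read higher on arrays 1 to 3 than on arrays 4 to 6. Of the 9 genes, 8 lay under the median level of all genes, 9.03. Among all genes under that level, 30.6% had arrays 1 to 3 above arrays 4 to 6 and 11.1% below. With centring on the array medians the count was 8 of 9 genes, against 30.2% of all genes. Under quantile normalization it was 3 of 9, against 28.2%, and with centring on ribosomal protein probe sets 1 of 9, against 9.33%. Neuron markers differed between the same sets: all 10 measured neuron genes lay lower on arrays 1 to 3, with a median difference of −0.99 and a mean level of 10.04 to 10.25 on arrays 1 to 3 and 11.05 to 11.11 on arrays 4 to 6. The part of neurons in the difference between the sets was not tested.

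Most of the class I heavy chains and their relatives did not pass. Many of them are partners of the B2m protein, but the list also holds Azgp1, a relative not known as such a partner. Azgp1 was among those that fell (−0.29 ± 0.10, limma adjusted p = 0.0426, or 0.245 with the random block) and was named after its value was seen. Of 50 genes on that list 16 were measured. By limma, 2 of these passed upward and 4 downward, 1 and 1 with the random block, and their median difference was −0.15. Under quantile normalization 2 passed upward and 1 downward. Here and for the lists below, the shares of all genes were 21.9% upward and 22.7% downward, or 13.2% and 9.11% with the random block. At an unadjusted p under 0.05, 2614 of the 10411 genes rose and 3051 fell. Fcgrt, the neonatal Fc receptor, which pairs with beta-2-microglobulin, rose by 0.55 ± 0.11 to 9.57 in culture, against 9.02 in tissue (limma adjusted p = 0.00253). RT1-T24-3, a nonclassical class I gene, fell by 0.40 with a standard error of 0.08 (limma adjusted p = 0.00327). RT1-T24-4 changed by 0.26 ± 0.07, RT1-CE10 by −0.22 ± 0.08 and Cd1d1, a lipid-presenting relative, by −0.17 ± 0.06. Their limma adjusted p-values were 0.014, 0.0498 and 0.0398. These last 3 calls ended with the random block and when single arrays were left out. Heavy chain genes are near-identical copies of each other, and probe sets of 1 may read RNA of another.

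RT1-A, the classical class I locus, was not on the list and was picked after its value was seen. Its probe set with that symbol alone read 8.38, 8.62, 8.69, 8.21, 8.38 and 8.34 in culture, against 8.42, 8.38 and 8.32 in tissue. The groups overlapped. The difference of 0.06 ± 0.10 did not pass, with a 95% interval from −0.16 to 0.29 (limma adjusted p = 0.63). A probe set shared by RT1-A and 4 related copies read 7.82 to 8.09 in culture and 8.26 to 8.40 in tissue (−0.29 ± 0.07, limma adjusted p = 0.0082, or 0.101 with the random block). Another, shared with RT1-CE16 and RT1-A1, did not pass (−0.18 ± 0.10). That of RT1-A2 and RT1-A3 fell by 0.35 with a standard error of 0.07, also with the random block (limma adjusted p = 0.0329), but read in the range of the controls. RT1-S3 did not pass on its brightest probe set (−0.14 ± 0.09). Its others fell by 0.41, 0.23 and 0.21, calls that ended with the random block, as did a rise of 0.20 in a dim RT1-CE5 probe set. All were picked likewise.

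Most measured genes of peptide supply and loading rose in culture. The list holds chaperones and other proteins of the endoplasmic reticulum together with peptidases of the cytosol. Of 13 measured, 9 rose and 0 fell by limma, with 9 and 0 at an unadjusted p under 0.05. The random block left 7 higher. Their median difference was 0.35, against −0.06 over all genes. Erap1, the aminopeptidase that trims peptides to the length class I molecules hold, read 9.23, 9.14, 9.18, 8.80, 8.80 and 8.70 in culture, against 7.59, 7.85 and 8.10 in tissue. All culture values lay above all tissue values, and those of arrays 1 to 3 above those of arrays 4 to 6. Erap1 rose by 1.13 ± 0.15 or 2.19-fold (limma adjusted p = 2.7e-04), its second probe set by 0.57 ± 0.13, while its dimmest probe set, at 4.92 in culture and 4.91 in tissue, lay within background.

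The other members of that list that rose serve many proteins besides class I molecules. Sec61a1, the channel for new proteins, rose by 0.68 ± 0.06, and Bcap31, an export receptor, by 0.56 ± 0.12. Calr, calreticulin, a chaperone of the loading complex, rose by 0.47 ± 0.12 to 12.34 in culture, against 11.87 in tissue, and by 0.38 without MesE11 replicate 3, where the call was lost (limma adjusted p = 0.0527). Its partners on the loading path, Canx and Pdia3, rose by 0.35 ± 0.06 and 0.34 ± 0.06; they were named after their values were seen.

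Most proteasome genes did not pass. Of 17 measured subunit and activator genes, 3 rose and 2 fell by limma, against 21.9% and 22.7% of all genes. The random block left 1 and 1, and the median difference was 0.03. Psmb5, the constitutive counterpart of Psmb8, averaged 13.10 in culture and 13.28 in tissue (difference −0.19 ± 0.07, limma adjusted p = 0.0678). Psmb7, that of Psmb10, averaged 12.43 in culture and 12.55 in tissue (−0.12 ± 0.07, limma adjusted p = 0.152). Psmb6, the counterpart of Psmb9, was not analysed here. Psme1 and Psme2 form the interferon-inducible activator that caps the proteasome. Psme1 read 10.42, 10.32, 10.46, 10.35, 10.25 and 10.15 in culture, against 10.80, 10.88 and 10.64 in tissue, and fell by 0.45 with a standard error of 0.08 (limma adjusted p = 0.00176). Psme2, its partner, differed by 0.06 ± 0.07 (limma adjusted p = 0.499). Psmb2 rose by 0.61 ± 0.06 and Psme4, another activator, by 0.30 ± 0.06, and Psma6 by 0.22 ± 0.06, while Psmb4 fell by 0.23 with a standard error of 0.07. The calls of Psme4, Psma6 and Psmb4 ended with the random block, those of Psma6 and Psmb4 also when single tissue arrays were left out, and 1 of 2 further probe sets of Psme4 did not pass (−0.13 ± 0.12).

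Interferon-induced genes went both ways. Of 31 measured, 8 rose and 4 fell by limma, against 21.9% and 22.7% of all genes. The random block left 6 and 2, and the median difference was −0.02. In 10 of the 31 both means lay below the highest bacterial control. Ifitm3 and Ifitm2, which block the entry of viruses, had the largest rises on the list. Ifitm3 read 10.17, 9.95, 9.94, 9.62, 9.40 and 9.36 in culture, against 7.48, 7.42 and 7.63 in tissue, a rise of 2.23 ± 0.17 or 4.69-fold. Ifitm2 rose by 1.86 ± 0.15 and Ifitm1 by 0.80 ± 0.16 (limma adjusted p = 1.3e-05 and 0.00306). Eif2ak2, the kinase that senses double-stranded RNA, rose by 0.63 ± 0.06. Rsad2, the antiviral protein viperin, fell by 0.33 with a standard error of 0.05, with both means in the range of the controls. Vcam1, an adhesion molecule that cytokines induce, fell by 1.29 with a standard error of 0.09. Cxcl10, Gbp2 and Mx1, standard reporters of an interferon response named after their values were seen, differed by −0.02, 0.02 and −0.02. In culture as in tissue their means stayed under the highest bacterial control.

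The upstream signalling genes went both ways, as all genes did. Of 13 genes for interferons, their receptors and STAT signalling, 3 rose and 3 fell, against 21.9% and 22.7% of all genes. With the random block 2 rose and 1 fell, against 13.2% and 9.11%. Ifngr2, a chain of the interferon gamma receptor, fell by 0.62 with a standard error of 0.10. Ifngr1, the other chain, rose by 0.23 ± 0.07 (limma adjusted p = 0.0276, or 0.232 with the random block) and was named after its value was seen. Stat3 rose by 0.82 ± 0.11. Ptpn11, a phosphatase, rose by 0.54 ± 0.06, though its dimmer probe set did not pass (0.07 ± 0.09). Ifnb1, interferon beta, fell by 0.33 with a standard error of 0.08, a call that ended with the random block. It read 6.68 to 6.90 in culture, close to the highest bacterial control of 6.68. The interferon regulatory factor list held 7 measured genes besides Irf1. Among them were Irf2bp1 and Irf2bp2, which encode proteins that bind Irf2 and are not such factors themselves. Of these 7 genes 2 rose and 1 fell, and 0 and 0 passed with the random block. At an unadjusted p under 0.05 without that block 2 were higher and 2 lower, as with median centring at the adjusted threshold. Irf3 rose by 0.41 ± 0.09 and Irf2bp2 by 0.37 ± 0.09, with limma adjusted p-values of 0.0519 and 0.0907 with the random block. The gene that fell was Irf2bp1 (−0.20 ± 0.06, limma adjusted p = 0.0288), named after its value was seen. Of 8 NF-kappaB genes 5 rose and 0 fell, or 6 and 0 at an unadjusted p under 0.05, and 3 rose with the random block. Nfkbia, the inhibitor that NF-kappaB itself induces, rose by 0.65 ± 0.11, Ikbkb by 0.64 ± 0.10 and Nfkb1 by 0.49 ± 0.13. Chuk rose by 0.22 ± 0.05, a call that ended with the random block. The call of Nfkb1 ended without MesE11 replicate 1 or 3 (limma adjusted p = 0.0544 and 0.0543).

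Most class II pathway genes did not pass, nor did most of all genes. Of 15 measured, 3 rose and 3 fell by limma, against 21.9% and 22.7% of all genes. The random block left 3 and 1, and the median difference was −0.02. The risers were the lysosomal proteases Ctsl, Ctsb and Ctsd, with 0.61 ± 0.06, 0.55 ± 0.07 and 0.38 ± 0.06; a further probe set of Ctsl did not pass (0.10 ± 0.07). Ctss, the protease of antigen-presenting cells that cuts the invariant chain, fell by 0.75 with a standard error of 0.08. Lgmn, another lysosomal protease, fell by 0.39 with a standard error of 0.11. Its difference was −0.39 with the random block and −0.28 without MesE11 replicate 1, and the call was lost in both cases (limma adjusted p = 0.136 and 0.0892). The remaining gene that fell was RT1-DMb, also of the class II family (−0.30 ± 0.10, limma adjusted p = 0.0332, or 0.178 with the random block). RT1-Ba, RT1-Bb, RT1-Da and RT1-Db1, the class II chains themselves, differed by −0.09, −0.02, −0.12 and −0.09 and did not pass. These 4 and RT1-DMb were named after their values were seen.

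**Figure D4:**
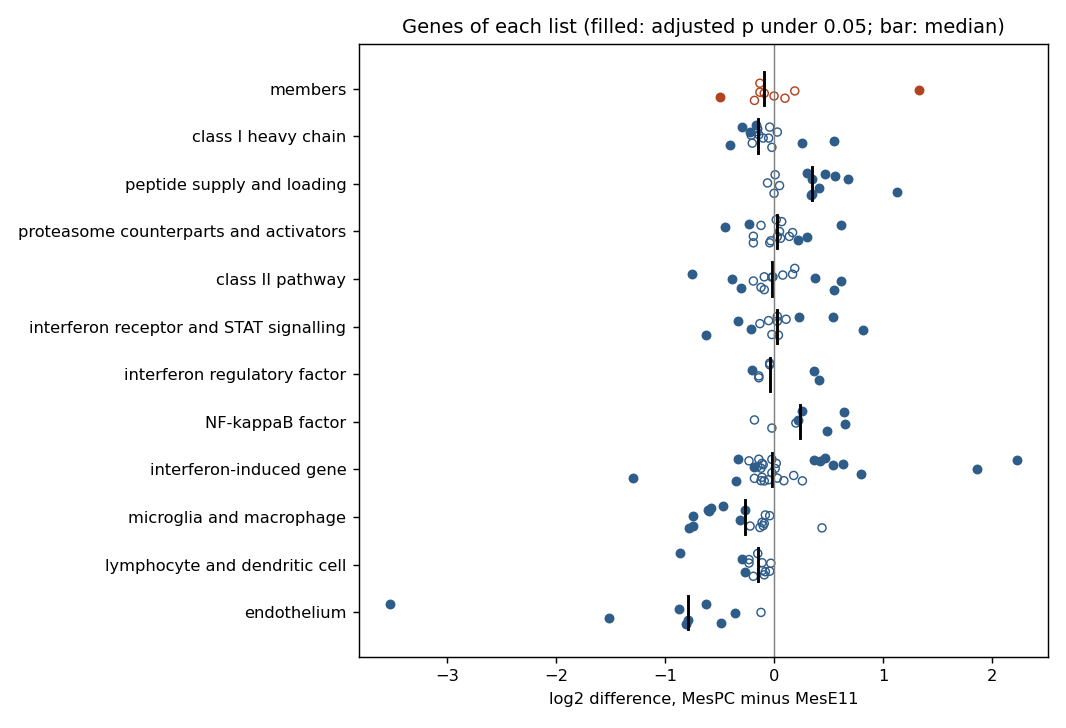
Log2 difference of every measured gene, MesPC minus MesE11, for the 9 genes (red, top) and the lists around them (blue). Filled points passed limma's test at an adjusted p under 0.05, open points did not, and black bars are medians. The peptide supply and loading list has its median at 0.35, the 9 genes at −0.09, and the microglia and endothelium lists lie mostly below 0.

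Markers of other cells moved with the comparison. Of 17 microglia and macrophage genes, 0 rose and 9 fell, against 21.9% and 22.7% of all genes, and 6 fell with the random block. At an unadjusted p under 0.05, 1 rose and 10 fell. The mean level of that list per array was 7.29 to 7.45 in culture and 7.67 to 7.73 in tissue. C1qa and Mpeg1 fell by 0.74 each with a standard error of 0.08, though the dimmer Mpeg1 probe set did not pass (−0.21 ± 0.10). Ptprc, a marker of white blood cells, which was named after its value was seen, averaged 5.75 in culture and 5.84 in tissue, within the range of the controls.

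Of 13 lymphocyte and dendritic cell genes 0 rose and 3 fell by limma, 1 with the random block, and at an unadjusted p under 0.05 0 rose and 5 fell. Their mean level was 6.64 to 6.79 in culture and 6.89 to 7.02 in tissue, and 6 of the 13 had both means under the highest control. Of 9 endothelial genes 0 rose and 8 fell, 7 with the random block and 8 at an unadjusted p under 0.05. Their level was 7.13 to 7.39 in culture and 8.30 on each tissue array. Fibroblast and meninges genes rose in 11 of 12 cases and 1 fell, 10 and 1 with the random block, with a level of 10.31 to 10.57 in culture and 7.80 to 8.01 in tissue. Of 10 astrocyte genes 6 rose and 0 fell, 5 and 0 with the random block and 7 and 1 at an unadjusted p under 0.05 and under quantile normalization, and their level was 10.50 to 10.67 in culture and 9.72 to 9.98 in tissue. Of 10 neuron genes 6 fell and 0 rose, 5 and 0 with the random block and 9 and 0 at an unadjusted p under 0.05. With culture arrays 1 to 3 alone 10 fell and with arrays 4 to 6 alone 8. Their level was 10.04 to 11.11 in culture and 11.83 to 11.89 in tissue. The part of these cell types in the rise of B2m, Erap1 and the Ifitm genes or in the fall of Psmb8 was not tested.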

How the data were processed

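The table analysed held 1 column per array. The authors deposited log2 intensities made with RMA, per the submitters' processing notes; no version was found there. RMA is meant to bring arrays to a common distribution, so differences are relative to the rest of the array. The deposited probe set values still differed in distribution, with a lower quartile of 7.15 to 7.21 on tissue arrays and 6.98 to 7.07 on culture arrays 4 to 6. Scanner files were not used here. Of 15923 probe sets, 57 controls were left out. The array annotation gave 12783 probe sets 1 symbol, 312 several and 2771 none; RefSeq changed 0 symbols. limma 3.58.1 in R 4.3.3 (lmFit, eBayes, two-sided, Benjamini-Hochberg over 15866 probe sets, threshold 0.05) compared MesPC with MesE11. In a test on simulated arrays (15866 probe sets, 200 of them changed), changes of 0.5 on the log2 scale were found in 45 of 67 cases. Changes of 1 were found in 60 of 67 and changes of 2 in 66 of 66, and 7 of 178 calls were false. The simulated arrays varied independently, without the split between the culture sets, so these rates need not hold for the real arrays. The random block (duplicateCorrelation, consensus correlation 0.447) took culture arrays 1 to 3, culture arrays 4 to 6 and tissue arrays as blocks. All tissue arrays formed a single block, so spread between tissue blocks could not be estimated and passing this fit is a limited check. Members and lists were chosen with earlier results of these data known. Other genes named were, from each list, up to 4 called genes without overlap in the main direction and up to 2 in the other, largest difference first, plus Psmb5, Psmb6, Psmb7, Psme1, Psme2 and Calr (one more item of the rule is not reported here); further names are said to be chosen after their values were seen. Genes that the rule took and the text leaves out are markers of other cells and minor list members. Erythroid genes fell in 6 of 7 cases and 0 rose by limma (6 and 0 at an unadjusted p under 0.05). Plots were drawn with matplotlib 3.10.9.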

Additional observations from a re-analysis of the deposited data

Results flagged for a closer look

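Among the 6 culture arrays, none of the 9 genes had an array far from the others, but 6 of the 75 genes examined did, where chance flags about 5% of groups. Psme2 read 10.77 on MesPC array 1 and 10.53 to 10.60 on the others. RT1-CE10 read 6.99 on MesPC array 4 and 7.25 to 7.33 on the others. Bcap31 read 10.83 on MesPC array 6 and 11.19 to 11.37 on the others. Ikbkb read 7.92 and Mlc1, an astrocyte gene, 10.58 on MesPC array 6, against 8.22 to 8.34 and 10.76 to 10.80 on the others. Nkg7, a lymphocyte gene, read 7.50 on MesPC array 4 and 7.71 to 7.83 on the others.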

How the results depend on the processing

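B2m kept its rise and its call in every alternative run (1.21 to 1.46 across those with other culture arrays, 1.28 to 1.36 without any 1 array), and Psmb8 its fall in each one that kept its probe set (−0.56 to −0.46 without any 1 array, highest adjusted p = 0.0125). Of 165 values of single genes under the alternatives, 157 kept direction or stayed short of the threshold and 8 newly passed it. Among the 9 genes, those called higher numbered 2 with MesPC replicates 1-3 alone, 3 under quantile normalization and 1 to 2 without any 1 array. Those called lower numbered 2 with MesPC replicates 4-6 alone, 3 with median centring, 0 without the dimmest 40% of probe sets, which left 3 of the 9 genes with a median of 0.0, and 1 without any 1 array. The random block gave 1879 probe sets higher and 1348 lower, against 3128 and 3565, and the dim filter 1936 lower. Without any 1 array these counts ran from 2484 to 3171 and from 2241 to 3458, the lowest without MesE11 replicate 3. The genes with culture arrays 1 to 3 all above 4 to 6 numbered 8 with median centring, 3 under quantile normalization and 1 with ribosomal protein centring, against 7, where the shares of all genes were 30.2%, 28.2%, 9.33% and 26%; the cause was not tested. The shared replicate numbers 1 to 3 showed no pairing of the samples: same-numbered arrays deviated with r of 0.084, −0.119 and −0.111, not each best with its own number. With so few arrays per group such weak correlations cannot exclude a pairing, and culture arrays 4 to 6 were not checked. The replicate block called 2 of the 9 genes higher, adding Irf1, and 3604 probe sets higher and 3917 lower. The mean of all probe sets tests genes, so it gave no count of probe sets. The number of arrays and signals near background limit what could be seen for Tap1, Tap2, Psmb9, Cd74 and Irf1, and for Psmb8 in culture.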
